A study of Mus musculus with 34 samples.

Results

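Fcrls and the classical Fc receptor genes were followed across 4 histone marks in microglia of the mouse hippocampus. The set was chosen by name and holds Fcrls, Fcgr1, Fcgr2b, Fcgr3, Fcgr4, Fcer1g and Fcgrt, which are 7 of the 21631 protein-coding genes of the RefSeq annotation used here (build GRCm38.p6, which corresponds to mm10). FGR libraries came from animals of a study on growth restriction in the uterus, and Ctrl libraries from its control animals; how the restriction was produced is not given in the labels. Every animal of both groups had the genotype Tmem119-tdTomato+/-, a reporter that makes microglia fluorescent, and the labels of replicates 1 to 3 give an age of 3 weeks after birth while those of replicate 4 give none. Each mark was measured in 4 FGR and 4 Ctrl libraries by ULI-NChIP-seq, an immunoprecipitation of unfixed chromatin scaled to small numbers of cells.

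Fc receptors bind the constant part of antibodies and are carried by macrophages, including microglia. Fcgr1, Fcgr3 and Fcgr4 encode activating receptors for IgG, which signal through the shared Fc receptor gamma chain encoded by Fcer1g. Fcgr2b encodes the inhibitory IgG receptor, and Fcgrt encodes the heavy chain of FcRn, which protects IgG from breakdown and moves it across cell layers. Fcrls, a soluble member of the Fc receptor-like family in the mouse, is known as a marker that separates microglia from other myeloid cells. H3K4me3 marks active promoters, H3K9ac and H3K27ac mark active promoters and enhancers, and H3K9me3 marks heterochromatin.

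The value used throughout is the length, in kb, of called peaks inside a window of a gene in 1 library. Gene ends are the stretches within 2.5 kb of either annotated end of the gene, and the wide window is the gene body with 20 kb on either side. Fcrls lies at chr3:87250736-87263765 and Fcgr1 at chr3:96282909-96293969, both on the minus strand. Of the genes on chromosome 1, Fcgr2b lies at chr1:170960558-170976071, Fcgr3 at chr1:171051169-171065915 and Fcer1g at chr1:171229572-171234349 on the minus strand, and Fcgr4 at chr1:171018926-171029761 on the plus strand. Fcgrt lies at chr7:45092993-45103822 on the minus strand. The wide windows of Fcgr3 and Fcgr4 share 18.6 kb, the gene ends of Fcer1g overlap those of Apoa2, and those of Fcgrt overlap those of Rcn3, so these genes partly read the same peaks. The wide windows of Fcgr2b and Fcgr4 nearly touch. Their longest Ctrl H3K27ac peak had the same length in each library (5.51, 5.22, 5.23 and 6.41 kb), so both windows appear to read parts of 1 peak. The wide window of Fcgr1 also holds the histone genes H2bc18, H3c13 and H4c14.

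Several facts of the libraries bear on every value below. No read counts came with the peak lists, so sequencing depth is unknown. The labels do not say that replicates are separate animals, and the p-values cover no more than the spread among these libraries. The lowest local background of a list, solved from the deposited fold and p of its weakest peaks, grows with depth and fragment length; in H3K4me3 it was between 0.846 and 1.16 fragments in FGR libraries, against 2.84 and 3.58 in Ctrl libraries. FGR libraries were also lower in H3K9ac (0.659 at most, against 2.35 at least in Ctrl) and H3K27ac (0.767 at most, against 2.39 at least in Ctrl), and the part of this gap in the results was not tested. Between 43175 and 49045 H3K4me3 peaks were listed in an FGR library, against 16598 and 18391 in a Ctrl library. In H3K9me3 the broad lists (replicates 1 to 3) had at most 22903 peaks in FGR and at least 345501 in Ctrl, and they were cut at different thresholds, −log10 q of about 1 in FGR and −log10 p of 1 in Ctrl. The libraries labelled FGR H3K4me3 were more like those labelled Ctrl H3K9ac (mean Pearson r of kb at gene ends 0.876 over 16008 genes, a description) than like those labelled Ctrl H3K4me3 (0.765), and the Ctrl H3K4me3 libraries correlated at 0.837 among themselves. The same held at the 7 genes, where the FGR H3K4me3 mean lay nearest the Ctrl H3K9ac mean for 5 genes, nearest the Ctrl H3K27ac mean for 2 and nearest the Ctrl H3K4me3 mean for 0. The FGR H3K9ac mean lay nearest the Ctrl H3K4me3 mean for 5 genes and the Ctrl H3K27ac mean for 2. The FGR H3K27ac mean lay nearest the Ctrl H3K9ac mean for 6 genes and the Ctrl H3K4me3 mean for 1. At these 7 genes no FGR mean of these 3 marks thus lay nearest its own mark in Ctrl. Over the 16008 genes this was so for H3K4me3 only. Of the Ctrl groups, FGR H3K9ac was most like Ctrl H3K9ac (mean r 0.666, against 0.531 for H3K4me3 and 0.601 for H3K27ac). FGR H3K27ac was most like Ctrl H3K27ac (0.922, against 0.877 for H3K9ac). The likeness across marks touches every H3K4me3, H3K9ac and H3K27ac result below, and its part in them was not tested. Inside the replicate 4 lists of H3K4me3 and H3K9me3, peak names carry the number 5 in place of 4, so the origin of these libraries is in doubt. With replicates 1 to 3 only, 3 calls were lost, those of Fcgr2b in H3K9ac (adjusted p = 0.111 at gene ends and 0.057 in the wide window) and that of Fcgr4 for H3K9ac minus H3K27ac (adjusted p = 0.0716). Marks are named below as the labels give them, and no H3K4me3 result can be given without these 4 libraries, which are the whole FGR group of that mark. Peaks of a bulk sample cannot tell fewer cells carrying a mark from less of the mark per cell.

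At the gene ends, all 7 genes had more H3K4me3 and less H3K27ac in FGR than in Ctrl, and H3K9ac divided the set. H3K9ac was lower in FGR at Fcrls, Fcgr1, Fcgr2b, Fcgr4 and Fcer1g and higher at Fcgr3 and Fcgrt. These directions were shared by much of the genome. Of all genes tested with limma at an adjusted p under 0.05, 95.5% were higher in H3K4me3, 81.6% were lower in H3K27ac, and 30% were lower and 28.5% higher in H3K9ac; 0 genes were lower in H3K4me3 and 0.194% were higher in H3K27ac. The counts of 7 higher for H3K4me3 and 7 lower for H3K27ac are therefore near what most genes showed, and the members are set against all genes below by the size of the change. After quantile normalization, which removes a shift common to all genes, 2916 genes were higher and 2610 lower in H3K4me3, and 1457 higher and 1348 lower in H3K27ac; 4 of the 7 genes then passed the test as higher in H3K4me3 and 3 as lower in H3K27ac, and Fcgrt turned to 0.256 kb higher in H3K27ac without passing. With lists cut to equal length, 3250 genes were higher and 5443 lower in H3K9ac, and the signs of the 7 genes in H3K9ac held under both scalings.

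**Figure D1:**
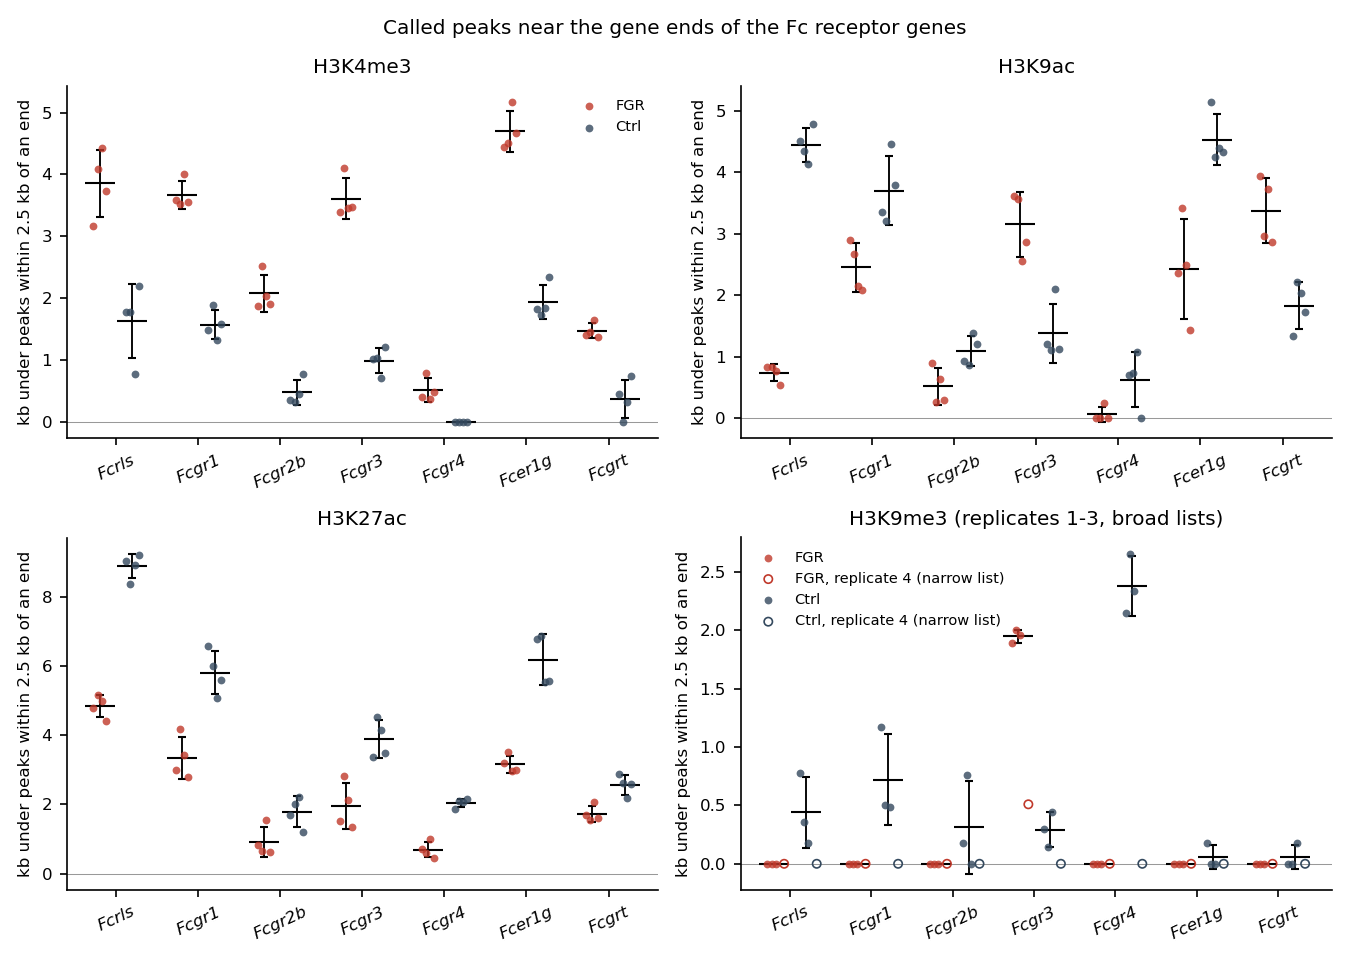
Each panel shows 1 mark; the vertical axis gives the kb under peaks at the gene ends, points are libraries (FGR left of Ctrl for each gene), bars are mean ± SD (n = 4 each, n = 3 for H3K9me3), and open circles are the narrow lists of H3K9me3 replicate 4. FGR points lie above Ctrl points for every gene in H3K4me3 and below them for every gene in H3K27ac, except that 1 of 4 Fcgr2b libraries of each group overlaps in H3K27ac.

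Fcrls, the microglial marker, showed the widest split between marks. Its gene ends held 3.17, 4.09, 4.43 and 3.73 kb of H3K4me3 peaks in FGR libraries, against 1.77, 1.77, 0.78 and 2.19 kb in Ctrl libraries. All 4 FGR values lay above all Ctrl values, and the difference was 2.23 kb (SE 0.343, limma adjusted p = 0.000244), larger than in 94.7% of genes tested. H3K9ac went the other way: FGR libraries held 0.83, 0.83, 0.77 and 0.54 kb, against 4.51, 4.34, 4.14 and 4.78 kb in Ctrl libraries. The groups were far apart, with a difference of −3.7 kb (SE 0.146, adjusted p = 7.73e-07) that was more negative in 0.0897% of genes. H3K27ac covered 4.78, 5.18, 5.0 and 4.42 kb in FGR and 9.05, 8.39, 8.92 and 9.23 kb in Ctrl, again without overlap. That difference was −4.06 kb (SE 0.21, adjusted p = 1.57e-06), and 0.219% of genes had a more negative one. Inside the windows the counted difference, though not the covered length, was larger at the 3′ end, with 0.395 ± 0.268 kb in FGR and 3.9 ± 0.361 kb in Ctrl. At the 5′ end FGR held 4.45 kb and Ctrl filled the 5 kb window in all 4 libraries. The window thus capped the 5′ difference, since Ctrl H3K27ac peaks at the start averaged 12.8 kb, and the ends cannot be ranked. The H3K9ac difference lay at the 5′ end, with 0.742 kb in FGR and 4.42 kb in Ctrl. H3K9ac of Fcrls alone, at 0.743 ± 0.139 kb in FGR and 4.44 ± 0.269 kb in Ctrl (SD, n = 4 each), placed Fcrls below Fcgrt, Fcgr3, Fcgr1 and Fcer1g in FGR, while in Ctrl it lay within its spread of Fcer1g, the highest of the set.

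The long peaks of Fcrls show where these lengths lie. The promoter sequence upstream of the RefSeq start, credited to RefSeq and read from build GRCm38.p6, is printed here for Fcrls because it lies under the longest start peaks of the set, for Fcgr3 because H3K9ac is lower there while it is higher elsewhere in the gene, and for Fcgr1 and Fcgr4 because they hold the other motifs searched. Each line gives the 250 bases before the start, 5′ to 3′ on the gene's strand, and capitals mark matches to the motifs GAGGAA (a core of sites bound by PU.1, a transcription factor of macrophages), TTCNNNGAA (bound by STAT factors) and a pair of GAAA blocks 2 bases apart (bound by interferon regulatory factors), searched on both strands.
Fcrls, chr3:87263525-87263774, minus strand: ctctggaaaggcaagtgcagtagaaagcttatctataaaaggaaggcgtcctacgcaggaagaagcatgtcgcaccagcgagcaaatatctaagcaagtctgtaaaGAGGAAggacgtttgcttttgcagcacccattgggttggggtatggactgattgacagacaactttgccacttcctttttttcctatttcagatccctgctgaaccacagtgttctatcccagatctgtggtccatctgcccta
Fcgr3, chr1:171059404-171059653, minus strand: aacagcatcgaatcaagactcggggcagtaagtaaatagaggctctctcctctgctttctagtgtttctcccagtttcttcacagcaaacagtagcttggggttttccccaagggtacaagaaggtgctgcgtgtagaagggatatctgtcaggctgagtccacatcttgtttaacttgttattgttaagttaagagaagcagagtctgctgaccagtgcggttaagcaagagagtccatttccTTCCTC
Fcgr1, chr3:96293970-96294219, minus strand: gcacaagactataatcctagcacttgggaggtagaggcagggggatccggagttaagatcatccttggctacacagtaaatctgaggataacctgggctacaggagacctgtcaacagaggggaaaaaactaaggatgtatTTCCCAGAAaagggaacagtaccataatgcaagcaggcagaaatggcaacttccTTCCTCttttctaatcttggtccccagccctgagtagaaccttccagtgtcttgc
Fcgr4, chr1:171018676-171018925, plus strand: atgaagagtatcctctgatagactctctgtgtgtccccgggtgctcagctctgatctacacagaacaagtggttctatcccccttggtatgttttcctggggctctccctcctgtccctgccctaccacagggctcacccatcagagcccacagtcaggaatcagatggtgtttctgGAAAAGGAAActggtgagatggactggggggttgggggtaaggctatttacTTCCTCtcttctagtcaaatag
GAGGAA was found in 4 of the 7 promoters (Fcrls, Fcgr1, Fcgr3 and Fcgr4), against 27.2% of 21045 RefSeq promoters of the same length, 250 bases before to 50 after the start. TTCNNNGAA was found in Fcgr1, against 7.76% of promoters, and the pair of GAAA blocks in Fcgr4, against 3.38%. The promoters of Fcgr2b, Fcer1g and Fcgrt held none of these letters. A match is a description of the letters and not a site of binding.

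At the Fcrls start, the longest peak touching 250 bp on either side measured 5.96, 10.35, 10.55 and 6.29 kb in FGR H3K4me3 libraries, against 0.9, 1.1, 0.78 and 1.13 kb in Ctrl. All 4 FGR peaks began about 1 kb upstream and ran into the gene body, 2 of them past 9 kb, while Ctrl peaks ended within 0.8 kb of the start. The mean was 8.29 ± 2.5 kb in FGR and 0.975 ± 0.167 kb in Ctrl (SD, n = 4 each), a difference of 7.31 kb (SE 1.09, limma adjusted p = 0.000391), larger than in 99.9% of genes with a start; 93.7% of genes had a longer peak in FGR and 0.00952% a shorter one. In H3K9ac the start peak of Fcrls measured 0.531 ± 0.0379 kb in FGR and 5.18 ± 2.48 kb in Ctrl (adjusted p = 0.00601). In H3K27ac it measured 3.51, 3.98, 3.95 and 3.29 kb in FGR, against 12.85, 12.8, 12.81 and 12.8 kb in Ctrl, where 1 peak covered nearly the same stretch in all 4 libraries. This difference of −9.13 kb (SE 0.159, adjusted p = 7.99e-09) was more negative in 0.626% of genes. Start peaks of 7 microglia markers, those of 12 with a RefSeq start, had median differences of 5.16 kb in H3K4me3, −5.44 kb in H3K9ac and −8.82 kb in H3K27ac. The fold enrichment of these start peaks, the authors' own value for a peak within its list, was 30.7 to 37.4 in FGR and 5.23 to 6.83 in Ctrl for H3K4me3, and 5.15 to 7.45 in FGR and 12.9 to 15.4 in Ctrl for H3K9ac.

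**Figure D2:**
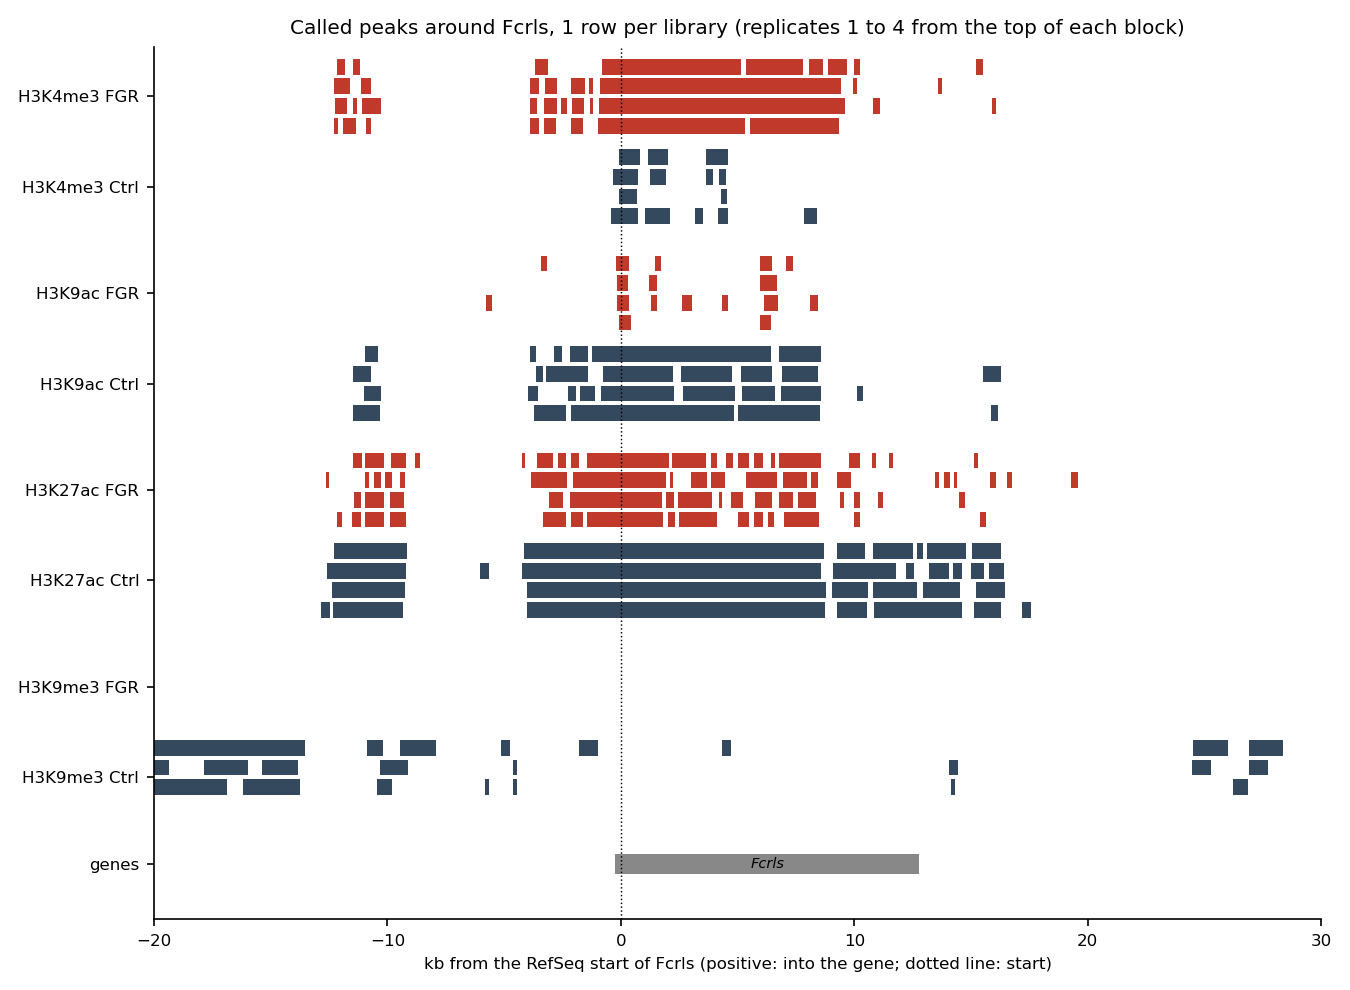
Called peaks around Fcrls, 1 row per library with FGR (red) above Ctrl (blue) for each mark; the horizontal axis gives kb from the RefSeq start, positive into the gene, and the grey bar is the annotated gene. H3K4me3 peaks of FGR cover most of the gene body, as H3K9ac and H3K27ac peaks of Ctrl do, while H3K9ac peaks of FGR are short.

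In the wide window, H3K4me3 at Fcrls covered 12.9 ± 1.16 kb in FGR and 2.42 ± 1.02 kb in Ctrl (SD, n = 4 each; adjusted p = 1.42e-06), a difference larger than in 99% of genes, while 97% of all genes tested were higher and 0.018% lower. H3K9ac there covered 1.91, 1.59, 2.65 and 1.0 kb in FGR, against 11.4, 11.77, 10.79 and 13.31 kb in Ctrl. These groups did not overlap (adjusted p = 1.46e-05), and 27.3% of all genes were lower in this window while 33.8% were higher. Upstream of Fcrls 2 stretches, merged over libraries, held a peak in every FGR H3K4me3 library and in no Ctrl H3K4me3 library. They lay −3.9 to −2.7 kb and −12.3 to −11.2 kb from the start. A merged stretch from −11.5 to −10.3 kb held a peak in every Ctrl H3K9ac library and in no FGR H3K9ac library.

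The activating receptors and their shared chain came next. Fcer1g, the gamma chain gene, had the largest H3K4me3 difference of the set at gene ends, though not in the wide window or at the start. Its gene ends held 4.44, 4.5, 5.17 and 4.67 kb of H3K4me3 peaks in FGR, against 1.83, 1.73, 1.85 and 2.35 kb in Ctrl, with no overlap (2.75 kb, SE 0.189, adjusted p = 2.87e-06, larger than in 97.9% of genes). H3K9ac covered 2.36, 3.42, 2.49 and 1.44 kb in FGR, against 5.14, 4.24, 4.4 and 4.33 kb in Ctrl. Every FGR library lay below every Ctrl library, although FGR libraries spread over nearly 2 kb (−2.1 kb, SE 0.384, adjusted p = 0.00166). H3K27ac covered 3.17 ± 0.25 kb in FGR and 6.19 ± 0.729 kb in Ctrl (adjusted p = 2.89e-05). Over the wide window, H3K9ac of Fcer1g averaged 6.15 kb in FGR and 6.71 kb in Ctrl and did not pass the test (adjusted p = 0.516); without FGR replicate 4, the lowest library, the difference was 0.147 kb. At the start itself the longest H3K9ac peak of Fcer1g measured 1.36 ± 0.15 kb in FGR and 3.93 ± 0.255 kb in Ctrl (adjusted p = 4.26e-06).

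Fcgr1 encodes the high-affinity IgG receptor. H3K4me3 at its ends covered 3.59, 3.53, 4.01 and 3.55 kb in FGR, against 1.49, 1.89, 1.33 and 1.59 kb in Ctrl. The groups were apart by 2.1 kb (SE 0.149, adjusted p = 3.37e-06), more than in 93.4% of genes. H3K9ac covered 2.9, 2.67, 2.15 and 2.09 kb in FGR and 3.35, 3.21, 4.45 and 3.79 kb in Ctrl, with the highest FGR and the lowest Ctrl library 0.31 kb apart. The test gave −1.25 kb (SE 0.293, adjusted p = 0.00595). H3K27ac was 3.35 ± 0.616 kb in FGR and 5.81 ± 0.632 kb in Ctrl (adjusted p = 0.000191). In the wide window, which includes the 3 histone genes, H3K4me3 covered 11.4 kb in FGR and 5.45 kb in Ctrl (adjusted p = 6.31e-07), but quantile normalization turned this difference to −4.05 kb (adjusted p = 0.00524).

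Fcgr4, the activating receptor that lies between Fcgr2b and Fcgr3, had little H3K4me3 or H3K9ac. No Ctrl library had an H3K4me3 peak at its ends, while FGR libraries held 0.41, 0.8, 0.38 and 0.48 kb, so that Fcgr4 entered the test through FGR libraries alone and its place among the 7 genes higher adds no support. Its difference of 0.519 kb lay below the median of all genes, 0.887 kb. H3K9ac was called in 1 of 4 FGR libraries (0.25 kb) and in 3 of 4 Ctrl libraries (0.7, 0.73 and 1.08 kb). The call on this difference (−0.566 kb, SE 0.209, adjusted p = 0.0436) was lost when any of 6 of the 8 libraries was left out, with adjusted p between 0.0818 and 0.106 (FGR replicates 1, 2 and 4 and Ctrl replicates 1, 2 and 3). H3K27ac was clearer, with 0.72, 0.6, 1.0 and 0.46 kb in FGR against 1.87, 2.09, 2.07 and 2.15 kb in Ctrl. Its groups did not overlap (−1.35 kb, SE 0.133, adjusted p = 2.08e-05).

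Fcgr3, the low-affinity activating receptor gene, was 1 of 2 members with more H3K9ac in FGR at the gene ends. H3K9ac covered 3.62, 3.56, 2.55 and 2.87 kb in FGR, against 1.2, 1.11, 2.1 and 1.12 kb in Ctrl. No FGR value reached down to the Ctrl values (1.77 kb, SE 0.304, adjusted p = 0.00122, larger than in 96.4% of genes). H3K4me3 covered 3.39, 4.1, 3.45 and 3.48 kb in FGR and 1.02, 1.03, 0.71 and 1.21 kb in Ctrl (2.61 kb, SE 0.173, adjusted p = 2.42e-06, larger than in 97.2% of genes). H3K27ac fell to 1.96 ± 0.657 kb in FGR, against 3.89 ± 0.551 kb in Ctrl (adjusted p = 0.000693).

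The rise of H3K9ac at Fcgr3 lay at its annotated 5′ end and not at the RefSeq start, which is 6.5 kb inside the gene. Within 2.5 kb of the annotated 5′ end, H3K9ac covered 2.87 ± 0.253 kb in FGR and 1.19 ± 0.0926 kb in Ctrl (SD, n = 4 each). Within 2.5 kb of the RefSeq starts, a window chosen after seeing the data, H3K9ac covered 1.43 ± 0.523 kb in FGR and 3.1 ± 0.496 kb in Ctrl, a difference of −1.68 kb (SE 0.298, adjusted p = 0.00104). The longest H3K9ac peak at the Fcgr3 start measured 0.224 ± 0.3 kb in FGR, where 2 libraries had none, and 2.26 ± 0.269 kb in Ctrl (adjusted p = 5.16e-05). In that window around RefSeq starts 6 of the 7 genes were lower in H3K9ac and none higher, against 38.2% lower and 24.5% higher of all genes; Fcgrt, at 2.07 kb in FGR and 1.76 kb in Ctrl, did not pass (adjusted p = 0.258). For H3K4me3 all 7 were higher there, as were 96.6% of all genes (0.00906% lower), and for H3K27ac all 7 were lower, as were 83.3% (0.0973% higher).

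A repeated cluster of tRNA genes lies over the annotated 5′ end of Fcgr3. The wide window holds 20 tRNA genes, and upstream of the RefSeq start they form 3 repeats of the same 5 genes (for Gly, Leu, Asp, Gly and Glu), which begin at −22.543, −14.969 and −7.298 kb. In H3K9ac, 15 to 17 of the 20 tRNA genes lay under a peak in FGR libraries and 6 to 8 in Ctrl libraries. Over all 408 annotated tRNA genes the order was the opposite, with 24.0 to 28.2% under an H3K9ac peak in FGR and 39.5 to 40.2% in Ctrl. Within 1 kb of the tRNA genes the wide window of Fcgr3 held 10.4 ± 0.442 kb of H3K9ac peaks in FGR and 4.71 ± 0.527 kb in Ctrl, and elsewhere 4.1 ± 0.856 kb in FGR and 3.73 ± 0.132 kb in Ctrl (SD, n = 4 each). In H3K4me3, 14 to 17 of these tRNA genes lay under a peak in FGR and 2 to 4 in Ctrl, against 51.2 to 54.2% and 11.3 to 15.9% of all tRNA genes. How the authors handled reads that match several places, as copies of a repeat can, is not given in the sources used here, and its part in these values was not tested.

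**Figure D3:**
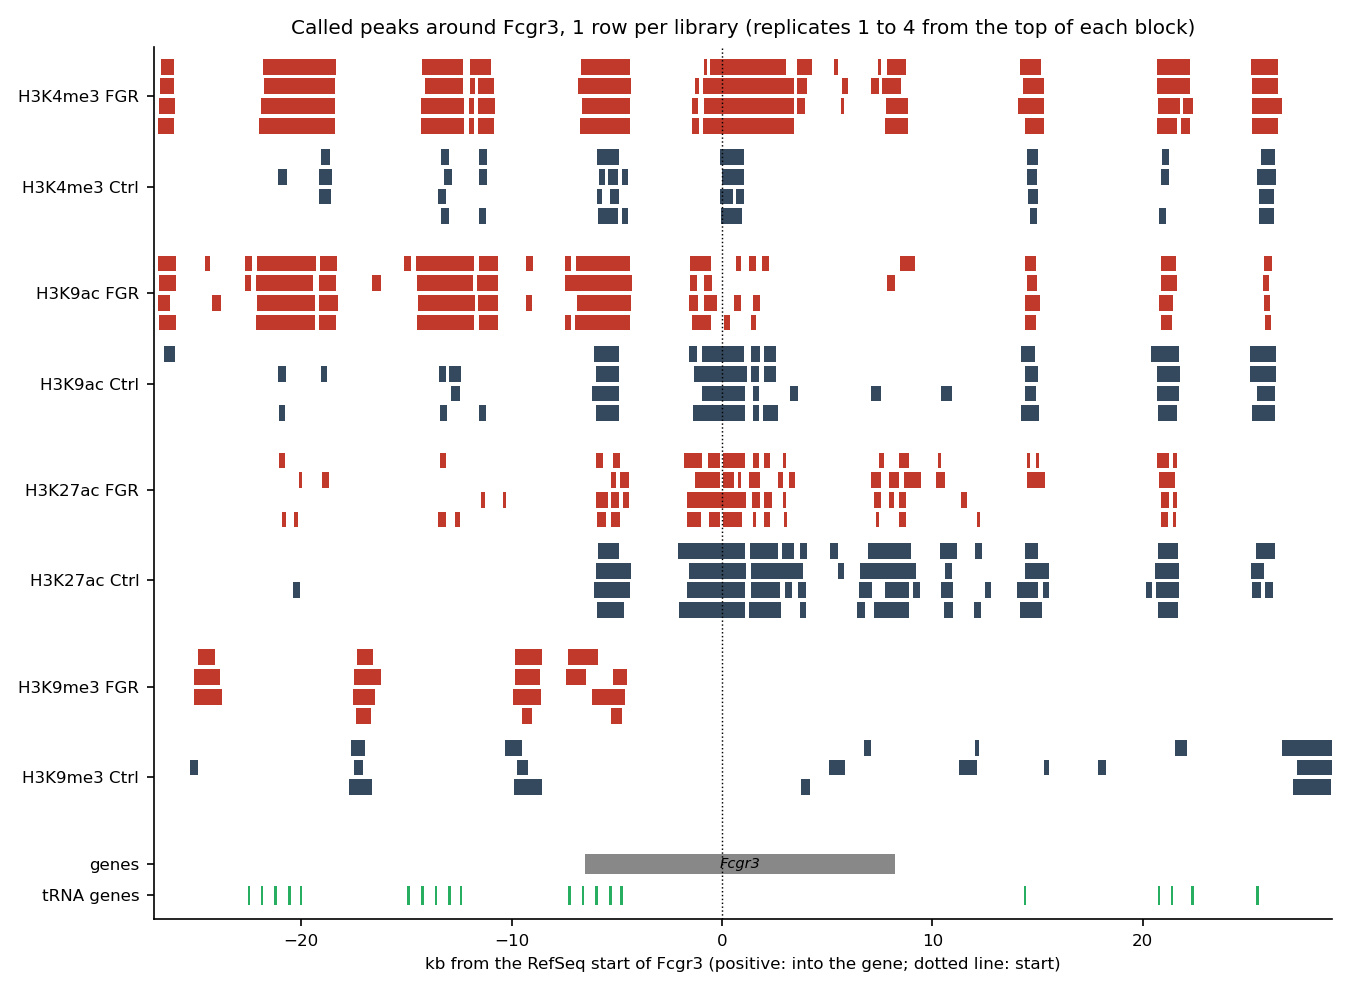
Called peaks around Fcgr3, 1 row per library with FGR (red) above Ctrl (blue) for each mark; the horizontal axis gives kb from the RefSeq start, positive into the gene, the grey bar is the annotated gene and green ticks are tRNA genes. H3K9ac peaks of FGR are long over the 3 upstream tRNA repeats and short at the start, and H3K9ac peaks of Ctrl are long at the start.

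H3K9me3 was sparse at the gene ends and set Fcgr3 apart. Fcgr3 held 1.89, 2.0 and 1.96 kb in FGR replicates 1 to 3, against 0.3, 0.14 and 0.44 kb in Ctrl. The difference of 1.66 kb (SE 0.153, adjusted p = 0.000883) was larger than in 99.9% of genes, and Fcgr3 was 1 of 9 genes higher in FGR, 0.0873% of those tested, against 34.9% lower. All of the FGR length lay at the annotated 5′ end, 1.95 ± 0.0557 kb in FGR against 0.147 ± 0.254 kb in Ctrl (SD, n = 3 each), and neither group had a peak within 2.5 kb of the RefSeq starts. In that window Fcgr1 was the 1 member with enough peaks to test and was not called (adjusted p = 0.069), while 26.4% of all genes tested were lower and 0.165% higher. Peaks merged over libraries gave a stretch of 2.91 kb, chr1:171063927-171066835, from −7.4 to −4.5 kb of the RefSeq start. It held a peak in each of FGR replicates 1 to 3 and in no Ctrl library. The longest single peak in the wide window measured 1.45, 1.3 and 1.53 kb in these FGR libraries. Of the 20 tRNA genes, 3 lay under an H3K9me3 peak in each of FGR replicates 1 to 3 and 0 in Ctrl. In the narrow lists of replicate 4, which were not tested, the ends of Fcgr3 held 0.51 kb in FGR and 0 kb in Ctrl. In the wide window Fcgr3 averaged 4.98 kb in FGR and 4.17 kb in Ctrl and did not pass (adjusted p = 0.145). Fcgr4 moved the opposite way, with no H3K9me3 peak in any FGR library and 2.15, 2.66 and 2.34 kb in Ctrl replicates 1 to 3 (−2.38 kb, SE 0.179, adjusted p = 0.000444). It entered this test through Ctrl libraries alone, whose lists were cut at the looser threshold, so its call adds no support. With lists of equal length, or with a −log10 p of at least 3 in both groups, too few peaks remained at Fcgr4 to test it, while Fcgr3 was called under both (1.95 kb each, adjusted p = 0.000278 and 6.14e-05). This difference equals the whole FGR mean, so next to no Ctrl length remained. Both settings shorten the Ctrl lists by construction. Fcgr3 then entered the test through FGR libraries alone, and these calls add no support. At Fcrls, Fcgr1 and Fcgr2b FGR libraries had no H3K9me3 peak at the ends, and Ctrl libraries averaged 0.44, 0.72 and 0.313 kb, which did not pass (adjusted p = 0.122, 0.0518 and 0.252). Fcrls passed without Ctrl replicate 1 or 3, and Fcgr1 passed without any single Ctrl replicate. Both genes entered the test through Ctrl libraries alone, so these passes add no support. Fcer1g and Fcgrt had a peak in only 1 Ctrl library each and were not tested. In the wide window, where 78.8% of genes were lower and 0.0447% higher, Fcrls (0 kb in FGR, 10.6 kb in Ctrl), Fcgr1 (0 and 1.6 kb), Fcgr2b (0.285 and 7.76 kb) and Fcgr4 (0 and 6.09 kb) were lower (adjusted p = 0.00482, 0.00919, 0.00612 and 0.00653). With lists of equal length or the stricter threshold 0 members were lower in this window. Quantile normalization turned Fcgr1 (0.467 kb) and Fcgr2b (0.93 kb), and Fcrls, Fcgr1 and Fcgr4 entered the test through Ctrl libraries alone.

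Fcgr2b, the inhibitory receptor gene, held 1.88 to 2.52 kb of H3K4me3 at its ends in FGR and 0.33 to 0.78 kb in Ctrl (1.6 kb, SE 0.161, adjusted p = 2.06e-05). Its H3K9ac covered 0.89, 0.26, 0.64 and 0.29 kb in FGR, against 0.93, 0.86, 1.39 and 1.2 kb in Ctrl, so that 1 FGR library lay inside the Ctrl range. That difference (−0.575 kb, SE 0.177, adjusted p = 0.021) lost its call without FGR replicate 2 or 4 or Ctrl replicate 3 or 4 (adjusted p between 0.0506 and 0.0577). In the wide window Fcgr2b turned, with 2.85, 2.73, 2.14 and 2.01 kb in FGR against 1.27, 1.56, 2.16 and 1.51 kb in Ctrl (0.81 kb, adjusted p = 0.0365). The groups overlapped there, the call was lost without any of 5 of the 8 libraries (FGR replicates 1 and 2 and Ctrl replicates 1, 2 and 4; adjusted p between 0.0794 and 0.0948), and with 5 kb flanks the difference was −0.266 kb. H3K27ac of Fcgr2b averaged 0.914 ± 0.437 kb in FGR and 1.78 ± 0.448 kb in Ctrl at the ends (adjusted p = 0.0113).

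At the ends of Fcgrt, H3K9ac covered 3.93, 2.97, 3.73 and 2.87 kb in FGR, against 1.34, 2.22, 2.03 and 1.72 kb in Ctrl. The groups did not overlap (1.54 kb, SE 0.282, adjusted p = 0.00165), and 94.7% of genes had a smaller difference. The larger part lay at the 3′ end, with 1.3 ± 0.187 kb in FGR and 0.07 ± 0.14 kb in Ctrl, while the 5′ end held 2.07 kb in FGR and 1.76 kb in Ctrl. Over the wide window it covered 9.75 to 12.93 kb in FGR, against 5.54 to 6.71 kb in Ctrl (adjusted p = 0.00123). Fcgrt was the only member with stretches, merged over libraries, that held a peak in every FGR H3K9ac library and in no Ctrl one. Its 4 merged stretches summed to 4.22 kb. They lay 11.5 to 30.9 kb downstream of the start and 17.4 to 18.1 kb upstream of it, in a stretch that also holds Nosip and Rcn3. At the start itself the longest H3K9ac peak of Fcgrt measured 1.19 kb in FGR and 1.6 kb in Ctrl and did not pass (adjusted p = 0.183). H3K4me3 at the ends was 1.47 ± 0.121 kb in FGR and 0.376 ± 0.305 kb in Ctrl (adjusted p = 0.000115), and H3K27ac was 1.73 ± 0.227 kb in FGR and 2.57 ± 0.288 kb in Ctrl (adjusted p = 0.00122).

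**Figure D4:**
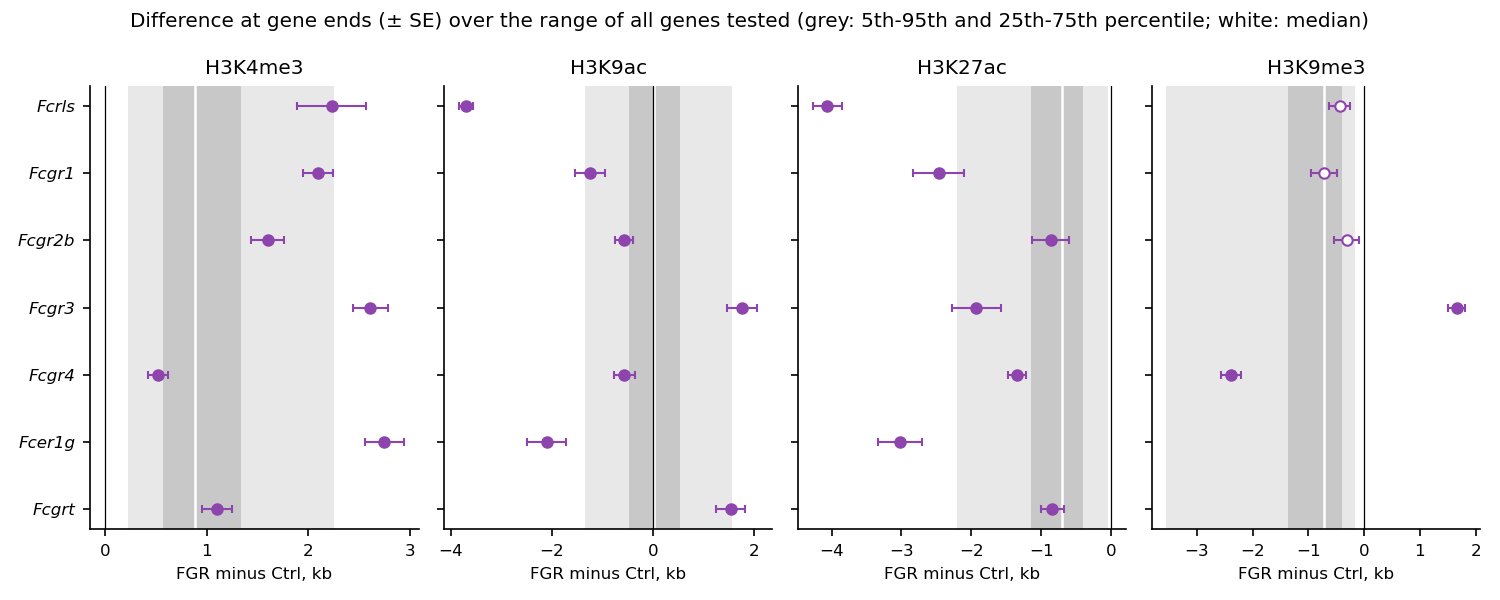
The horizontal axis of each panel gives the difference FGR minus Ctrl in kb at gene ends for 1 mark, with points for the 7 genes, bars for ± SE and open points for genes that did not pass; grey bands span the 5th to 95th and 25th to 75th percentile of all genes tested, and the white line is their median. Fcrls and Fcer1g lie left of the bands in H3K9ac and H3K27ac, and Fcgr1 does so in H3K27ac. Fcgr3 lies right of them in H3K4me3, H3K9ac and H3K9me3, and Fcer1g does so in H3K4me3.

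Over the wide window, 7 of 7 genes were higher in H3K4me3 (97% of all genes) and 7 of 7 lower in H3K27ac (83.4%, and 0.0458% higher). After quantile normalization 2 were higher and 1, Fcgr1, lower in H3K4me3 and 2 lower in H3K27ac, where Fcgr1 and Fcgrt turned without passing. In H3K9ac Fcrls, Fcgr1 and Fcgr4 were lower and Fcgr2b, Fcgr3 and Fcgrt higher; with lists of equal length 4297 of all genes were higher and 6709 lower, against 6146 and 4975 in the deposited lists. H3K4me3 at Fcgr3 covered 19.2 ± 0.464 kb in FGR and 4.64 ± 0.798 kb in Ctrl (14.6 kb, adjusted p = 1e-07, larger than in 99.7% of genes), part of which is the tRNA cluster. Of 7 start peaks, 6 were longer in FGR in H3K4me3, 6 shorter in H3K9ac and 7 shorter in H3K27ac, against 93.7%, 37.3% and 86.5% of all genes (20.2% were longer in H3K9ac and 0.116% in H3K27ac); the exceptions were Fcgr4 in H3K4me3 (0.0908 kb in FGR and 0 kb in Ctrl, adjusted p = 0.227) and Fcgrt in H3K9ac.

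**Figure D5:**
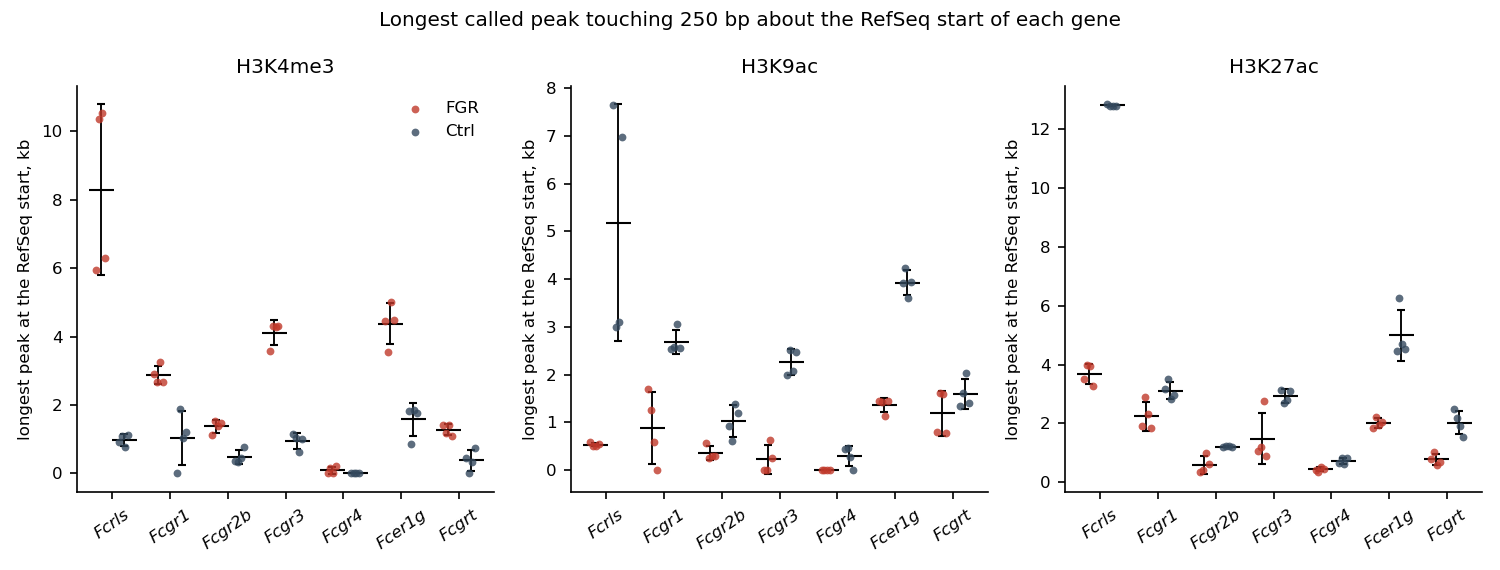
The vertical axis gives the length in kb of the longest called peak that touches 250 bp on either side of the RefSeq start, a measure chosen after seeing the data; points are libraries (FGR left of Ctrl) and bars are mean ± SD (n = 4 each). The Fcrls peak is the longest of the set, in H3K4me3 for FGR (8.29 kb on average) and in H3K27ac for Ctrl (12.8 kb).

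Whether the change differed between marks was tested directly. The H3K4me3 change minus the H3K9ac change at gene ends was above 0 for 5 genes, Fcrls (5.93 kb, SE 0.392, adjusted p = 3.98e-09), Fcer1g (4.85 kb, adjusted p = 1.55e-07), Fcgr1 (3.34 kb, adjusted p = 4.68e-07), Fcgr2b (2.18 kb, adjusted p = 1.29e-06) and Fcgr4 (1.08 kb, adjusted p = 0.00082). Fcgr4 averaged 0 kb of H3K4me3 in Ctrl and 0.063 kb of H3K9ac in FGR. It entered this test almost wholly through the groups where it was higher, so its call adds no support. Of all genes, 59.4% were above 0 and 10.5% below, and 99.7% had a smaller value than Fcrls. Fcgr3 (0.847 kb, adjusted p = 0.0517) and Fcgrt (−0.447 kb, adjusted p = 0.241) did not pass. The H3K9ac change minus the H3K27ac change was above 0 for Fcgr3 (3.7 kb, adjusted p = 2.87e-05), Fcgrt (2.39 kb, adjusted p = 4.83e-05) and Fcgr4 (0.786 kb, adjusted p = 0.016), against 51.7% of all genes above 0 and 4.13% below. The value of Fcgr4, whose H3K9ac had at most 0.629 kb on average to lose, turned to −0.0482 kb after quantile normalization and to −0.476 on the log2 scale. For Fcrls, where both acetylation marks were lower, it was 0.356 kb (adjusted p = 0.265). After quantile normalization 3581 genes were above 0 and 3409 below in the first comparison, and 4071 above and 4241 below in the second, where Fcrls then stood at −2.5 kb (adjusted p = 2.34e-06). About RefSeq starts, 68% of all genes were above 0 and 8.16% below in the first comparison and 45.8% above and 5.46% below in the second. Ctrl H3K27ac of Fcrls filled this window in all 4 libraries, so its difference between the acetylation marks cannot be read there.

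In genes of the same pathway the counts for H3K4me3 and H3K27ac were near those of all genes, and H3K9ac was divided. Of 35 genes that signal below Fc receptors, 34 were tested and 34 higher in H3K4me3 (95.5% of all genes), with medians of 2.78 kb in FGR and 0.961 kb in Ctrl. Tyrobp, the adaptor DAP12, had 6.21 kb in FGR and 1.29 kb in Ctrl, Was, an actin regulator, 1.69 and 0 kb, Btk, a kinase below the receptors, 4.52 and 0.842 kb, and Prkcd, a protein kinase C, 3.99 and 1.38 kb. Was entered the test through FGR libraries alone, so its call adds no support. In H3K27ac 33 were tested and 32 lower (81.6% of all genes), among them Tyrobp (6.02 kb in FGR and 8.8 kb in Ctrl), the phosphoinositide kinase gene Pik3cd (2.84 and 4.82 kb) and the GTPase genes Rac1 (1.97 and 6.01 kb) and Cdc42 (1.77 and 4.2 kb). In H3K9ac 17 of 35 were lower and 6 higher, against 30% and 28.5% of all genes. Pik3cg, a phosphoinositide kinase gene, fell to 0.559 kb in FGR, against 3.6 kb in Ctrl; Lcp2 and Blnk, adaptor genes, had 0.637 and 2.69 kb in FGR, against 2.77 and 4.91 kb in Ctrl; and Cdc42 had 1.22 kb in FGR, against 3.6 kb in Ctrl. Among those higher were Vav3, an exchange factor for GTPases (0.671 kb in FGR, listed at 0 in Ctrl), Ptpn6, the inhibitory phosphatase SHP-1 (6.05 and 4.32 kb), Dok1, an inhibitory adaptor (4.11 and 2.16 kb), and the kinase gene Fgr, whose symbol is not the group's name (1.18 and 0.636 kb). The call of Vav3 adds no support either, since it entered through FGR libraries alone. Syk, the kinase that the gamma chain recruits, was the 1 of 9 genes tested that was lower in H3K9me3 (0 kb in FGR and 1.16 kb in Ctrl, adjusted p = 0.0144). Of all genes tested 34.9% were lower and 0.0873% higher, and Syk entered the test through Ctrl libraries alone.

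The 11 other Fc receptor and Fc receptor-like genes had few peaks. In H3K4me3 5 were tested and 4 higher (95.5% of all genes), Fcrl1 (2.83 kb in FGR and 0.98 kb in Ctrl), Fcrlb (1.32 and 0.246 kb), Fcrl5 (1.06 and 0 kb) and Fcmr, the IgM receptor gene (0.202 and 0 kb). Fcrl5 and Fcmr entered that test through FGR libraries alone, so their calls add no support. In H3K9ac Fcrl1 (0.546 kb in FGR and 2.7 kb in Ctrl) and Fcrl5 (0.449 and 1.27 kb) were lower and Fcmr (0.292 and 0 kb) higher, of 8 tested (30% of all genes lower and 28.5% higher). Here too Fcmr entered through FGR libraries alone. In H3K27ac 4 of 5 were lower (81.6% of all genes), Fcrla, Fcrl5, Fcrlb and Fcrl1. In H3K9me3 Fcrla alone of 4 tested was lower (0 kb in FGR and 1.26 kb in Ctrl, adjusted p = 0.0499), against 34.9% of all genes. Fcrla entered that test through Ctrl libraries alone.

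The gene whose kb at gene ends followed a member most closely over the 24 libraries of H3K4me3, H3K9ac and H3K27ac was, by Pearson r over libraries that share marks and groups, Mfap3 for Fcrls (0.978). The highest r was 0.97 for Fcgr1 (Mtfr1l), 0.92 for Fcgr2b (Thumpd1), 0.917 for Fcgr3 (Septin11), 0.954 for Fcgr4 (Serinc3), 0.952 for Fcer1g (Ganc) and 0.959 for Fcgrt (Smpd5).

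The microglia label was checked on 12 defining genes, among them Tmem119, P2ry12 and Sall1, and all 12 had peaks in H3K4me3, H3K9ac and H3K27ac. Their summed H3K27ac at gene ends was 52.4 to 63 kb in FGR libraries and 94 to 95 kb in Ctrl libraries, with 12 of 12 lower (81.6% of all genes). Their H3K9ac was lower for 7 and higher for 3, against 30% lower and 28.5% higher of all genes. Among the members, Fcrls, Fcgr1, Fcgr2b, Fcgr4 and Fcer1g were lower there and Fcgr3 and Fcgrt higher. Of 8 monocyte and neutrophil markers, 6 had no peak at gene ends in any library of H3K4me3 or of H3K9ac; in the wide window 3 had none in H3K4me3 and 2 none in H3K9ac. Neuronal markers summed to at most 4.62 kb of H3K9ac in FGR and 0.429 kb in Ctrl, with 3 of 6 higher (28.5% of all genes), and oligodendrocyte lineage markers to 4.57 to 8.28 kb in FGR and 1.52 to 2.54 kb in Ctrl, with 4 of 6 higher. B cell markers, which matter because B cells also carry Fcgr2b, summed to 4.43 to 5.65 kb of H3K4me3 in FGR and 1.19 to 1.4 kb in Ctrl, with 4 of 6 higher (95.5% of all genes). The part of other cells in the values of the Fc receptor genes was not tested.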

How the data were processed

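Each of 32 libraries had 1 deposited list of MACS2-style peaks, broad for H3K9me3 replicates 1 to 3 and narrow otherwise. For each peak the authors deposited a fold enrichment (a ratio), a p-value and a q-value, both as −log10, and a whole-number score; these served for ranking and filtering inside a list. Per the submitters' processing notes, the build was mm10 and the tools included MACS2 2.2.7.1, Bowtie2 2.4.5 and Trim Galore 0.6.5. Not given in the sources used here are caller options, the control library and what was done with reads matching several places. The input library of each group was not used here. Depth is unknown and limits every length, since more reads let a caller draw longer peaks.

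The kb of merged peaks per window was computed for every protein-coding RefSeq gene and compared with limma 3.58.1 (R 4.3.3; lmFit and eBayes, two-sided, Benjamini-Hochberg over all genes tested, threshold 0.05), keeping genes with a peak in at least 2 libraries of the mark; per mark, 10313 to 15605 genes entered at gene ends. All 7 genes passed this filter for H3K4me3, H3K9ac and H3K27ac, and 5 for H3K9me3 at gene ends. Differences between marks came from 1 fit over 16 libraries. Fits were tested on simulated data. H3K9me3 was tested over replicates 1 to 3, and replicate 4 is given as values. Named genes are the 7 members, up to 4 genes of smallest adjusted p per direction, mark and list, and the genes of highest r. The members and lists were chosen with earlier results of these data known. Windows about RefSeq starts and start peaks were added after seeing the data. Alternatives were window size, peak threshold (−log10 q of at least 3; −log10 p of at least 3 for H3K9me3), equal list lengths, quantile normalization, log2(kb + 0.1), no filter, an overlap of at least 100 bp, a replicate block, replicates 1 to 3, and leaving out each library. Local background was solved for the weakest 2000 peaks of each narrow list, with −log10 p matched to 0.001. Some neighbouring and similar genes are not reported here.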

Additional observations from a re-analysis of the deposited data

Results flagged for a closer look

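In 84 sets of 4 libraries (7 genes, 2 windows, 3 marks, 2 groups), 1 library stood apart from its own group by Dixon's 95% criterion in 6; chance alone gives about 1 in 20. At gene ends these were FGR replicate 3 for H3K4me3 at Fcgr1 (4.01 kb), FGR replicate 2 for H3K4me3 at Fcgr3 (4.1 kb), FGR replicate 3 for H3K9ac at Fcgr4 (0.25 kb) and Ctrl replicate 3 for H3K9ac at Fcgr3 (2.1 kb). In the wide window they were FGR replicate 1 for H3K9ac (12.93 kb) and Ctrl replicate 2 for H3K4me3 (0.64 kb), both at Fcgrt. Without any of these libraries the direction stayed and the call remained for Fcgr1, Fcgr3 and Fcgrt, and that of Fcgr4 stayed just under the threshold without FGR replicate 3.

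The narrow H3K9me3 lists of replicate 4 enter no test. At Fcgr3 they held 0.51 kb at gene ends and 1.69 kb in the wide window in FGR, against 0 kb in both windows in Ctrl.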

How the results depend on the processing

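Of 622 gene values with 1 library left out, 591 kept their direction and their side of the threshold, 15 lost and 15 gained a call and 1 turned (H3K9ac of Fcer1g, wide window, range −0.949 to 0.147 kb, the highest without FGR replicate 4). Leaving out 1 library gave 3 to 5 genes lower in H3K9ac at the ends, 2 to 3 higher in the wide window, 1 to 3 lower in H3K9me3 at the ends, 5 to 6 above 0 for H3K4me3 minus H3K9ac and 3 to 5 for H3K9ac minus H3K27ac. Replicate numbers did not pair the libraries (correlation of deviations −0.0212 to 0.0337); with the replicate block 2 calls were lost, both in the wide window, H3K9ac of Fcgr2b (0.81 kb, adjusted p = 0.0929) and H3K9me3 of Fcgr1 (−1.6 kb, adjusted p = 0.0582), and no other call changed.

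Quantile normalization changed most. It left 4 genes higher in H3K4me3 and 3 lower in H3K27ac at the ends, 2 higher and 1 lower in H3K4me3 and 2 lower in H3K27ac in the wide window, 2 lower in H3K9me3 at the ends, 2 higher and 2 lower in the wide window, and 1 below 0 in each comparison of marks. Values turned for Fcgr1 (−4.05 kb H3K4me3, 0.253 kb H3K27ac and 0.467 kb H3K9me3, wide), Fcgrt (H3K27ac 0.256 kb at the ends and 0.386 kb wide; H3K9me3 1.19 kb wide) and Fcgr2b (H3K9me3 0.93 kb wide). H3K4me3 minus H3K9ac turned to −0.683 kb for Fcgr3, and H3K9ac minus H3K27ac to −2.5 kb for Fcrls, −0.644 kb for Fcgr1, −0.657 kb for Fcgr2b, −0.0482 kb for Fcgr4 and −1.04 kb for Fcer1g. Of all genes, 3607 were then higher and 3661 lower in H3K4me3, 1839 and 1709 in H3K27ac and 3166 and 4440 in H3K9me3 in the wide window, and 152 and 2715 in H3K9me3 at the ends.

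In H3K9me3, equal list lengths and the stricter threshold each left 0 genes lower in both windows and 1 higher in the wide window. Apart from that count, the wide value of Fcgr2b turned to 0.285 kb under each, which equals its whole FGR mean. Of all genes 53 were higher and 21 lower at the ends with equal lengths and 161 and 2 with the stricter threshold; in the wide window, 259 and 65 with equal lengths and 2189 and 9 with the stricter threshold. Fewer peaks remain under both by construction. Genes lower in H3K9me3 at the ends numbered 0 with 1 kb windows, 3 on the log2 scale and 0 about RefSeq starts, where 0 were higher; with 5 kb flanks 1 was higher. In H3K9ac the stricter threshold and the absence of a filter each left 3 genes lower at the ends; 0 were higher about RefSeq starts (Fcgr3 −1.68 kb) and 1 with 5 kb flanks (Fcgr2b −0.266 kb). H3K4me3 minus H3K9ac of Fcgrt was 0.32 kb with 1 kb windows, 0.0258 kb with equal lengths, 1.22 on the log2 scale and 0.586 kb about RefSeq starts, and that of Fcgr3 −0.0682 kb with equal lengths. H3K9ac minus H3K27ac was −1.58, −0.108 and −0.476 on the log2 scale for Fcrls, Fcgr2b and Fcgr4, and −2.93, −0.0352 and −0.42 kb about RefSeq starts for Fcrls, Fcgr2b and Fcgr3, with 1 gene below 0 under each. Beyond the constructions named, the cause was not tested.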
